A study of Homo sapiens with 15 samples.

Results

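The DiFi cells labelled plate 3 were compared with those labelled plate 2, using 4 of the 14 libraries that have a column in the deposited miRNA table. They were chosen by title alone: HF6 plate 3 and HF7 plate 3 form 1 group (n = 2), and HF6 plate 2 and HF7 plate 2 form the other (n = 2). Every library of both groups comes from DiFi, 1 established human colorectal cancer line, and the labels give no genotype change, drug, medium or time that separates plate 2 from plate 3. What a plate number stands for, and what HF means, is not spelled out. The plate 1 libraries of HF6 and HF7 (n = 2) entered the model as another group, and their values are given beside the others as a scale.

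The series bears on supermeres, small extracellular particles, and its design text speaks of trying out culture conditions for sampling the carriers in which cancer cells release small RNA. The miRNeasy kit was used for RNA and the NEXTflex kit for small RNA libraries. The extraction text in the labels speaks of extracellular samples and is the same for the plate cells. Nothing in the labels says whether the HF numbers are separate cultures, so a p-value here speaks only of the spread between these samples, which may be technical.

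A miRNA is cut from a hairpin precursor as a short duplex, and usually the arm that is kept by an Argonaute protein is far more abundant than the other arm. Bases 2 to 8 of the kept arm, the seed, pair with target messages, so miRNAs with the same seed share many predicted targets. Hairpins that lie close together on a strand are often cut from 1 primary transcript. Colonic epithelium is known for miR-192, miR-194 and miR-215 and for the miR-200 family, which restrains ZEB1 and ZEB2.

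The sequences on which the comparison turns are given 5′ to 3′ with the seed in capitals (RefSeq, GRCh38.p14). The first set holds the 6 most abundant miRNAs called higher in plate 3, with miR-181d-5p, the neighbour of miR-181c-5p, which did not pass the test. Only miR-181c-5p and miR-181d-5p share a seed in this set.
miR-210-3p: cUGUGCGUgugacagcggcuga
miR-375-3p: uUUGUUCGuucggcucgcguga
miR-148a-3p: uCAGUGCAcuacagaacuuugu
miR-26a-5p: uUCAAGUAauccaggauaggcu
miR-499a-5p: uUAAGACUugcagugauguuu
miR-181c-5p: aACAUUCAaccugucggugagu
miR-181d-5p: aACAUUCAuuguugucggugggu

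The second set shows the cluster on chromosome 19 whose members were at lower levels in plate 3, with miR-125a-5p and miR-99b-5p each above a relative with the same seed from another locus. Within a pair the seeds are identical and the letters that differ lie in the 3′ part or at the first base.
miR-125a-5p: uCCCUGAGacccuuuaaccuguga
miR-125b-5p: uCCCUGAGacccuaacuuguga
miR-99b-5p: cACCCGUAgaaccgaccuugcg
miR-99a-5p: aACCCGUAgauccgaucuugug
let-7e-5p: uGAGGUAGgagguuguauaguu

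The 4 libraries held 4184886 (plate 2, HF6), 3364809 (plate 2, HF7), 1246482 (plate 3, HF6) and 3816487 (plate 3, HF7) counts, so the shallowest library is in the plate 3 group. A floor of 3 counts corresponds to between 0.717 and 2.41 CPM, and floors cover counting error only. Replicates differed beyond sampling noise, with a chi-square per degree of freedom of 83.6 for plate 2 and 44.8 for plate 3, so no library is a copy of another. CPM are counts scaled to a common total after TMM correction. The floors and the correlations that follow were scaled by total counts alone. Correlations of log2 CPM were taken across the 284 miRNAs that averaged 20 CPM or more over the 14 libraries. The correlation was 0.994 within plate 2, 0.992 within plate 3 and 0.988 to 0.992 between them. With the plate 1 libraries it was 0.948 to 0.957, with the cell pellets 0.890 to 0.922, with the single HDM media library 0.958 to 0.963 and with the single regular media library 0.9748 to 0.9776. By this description the plate 2 and plate 3 libraries lay closer to regular media than to plate 1 or to pellets, although they are labelled as cells. A correlation across miRNAs has no independent replicates behind it. The epithelial markers were abundant, with a summed 118543 to 129251 CPM for miR-192, miR-194, miR-215 and their other arms, and 158919 to 175059 CPM for the miR-200 family in the 4 libraries.

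Between plate 3 and plate 2 most miRNAs differed little. Of the 279 miRNAs that averaged 20 CPM or more over the 4 libraries, 250 (89.6%) differed by less than 1.5-fold and 9 (3.23%) by 2-fold or more. The edgeR quasi-likelihood test called 16 of 534 miRNAs at a Benjamini-Hochberg adjusted p under 0.05, which is 3.0% of those tested. Of these, 12 (2.25%) were higher in plate 3 and 4 (0.749%) were lower. The higher ones were miR-210-3p and miR-210-5p, miR-375-3p, miR-148a-3p, miR-26a-5p, miR-181c-5p and miR-181c-3p, miR-499a-5p, miR-215-3p, miR-4497, miR-3195 and miR-4488. The lower ones were miR-125a-5p, miR-99b-5p, miR-149-5p and miR-3065-5p. Plate 2 and plate 3 libraries did not overlap for 230 miRNAs (43.1%), with plate 3 above in 97 (18.2%) and below in 133 (24.9%), so a lack of overlap between 2 and 2 libraries is common. In contrast, the same fit called 199 miRNAs (37.3%) between plate 2 and plate 1 and 170 (31.8%) between plate 3 and plate 1, comparisons that share the plate 2 or plate 3 libraries with this one.

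These calls rest on the spread between all 6 plate libraries. A fit of only the 4 plate 2 and plate 3 libraries called 0 miRNAs in edgeR (lowest adjusted p = 0.0814, with 69 miRNAs at an unadjusted p under 0.05), 0 in limma-voom and 11 in DESeq2. Without plate 2 HF6 edgeR called 0 miRNAs, and without plate 2 HF7 it called 1, miR-125a-5p. Without plate 3 HF7 it called 5, of which 3 are among the 16: miR-125a-5p, miR-181c-5p and miR-499a-5p. Without plate 3 HF6 it called 16, of which 13 are among the 16 of the full fit. With the libraries thinned to the depth of the shallowest it called 9. The direction of all 16 miRNAs was the same in each of these fits.

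**Figure D1:**
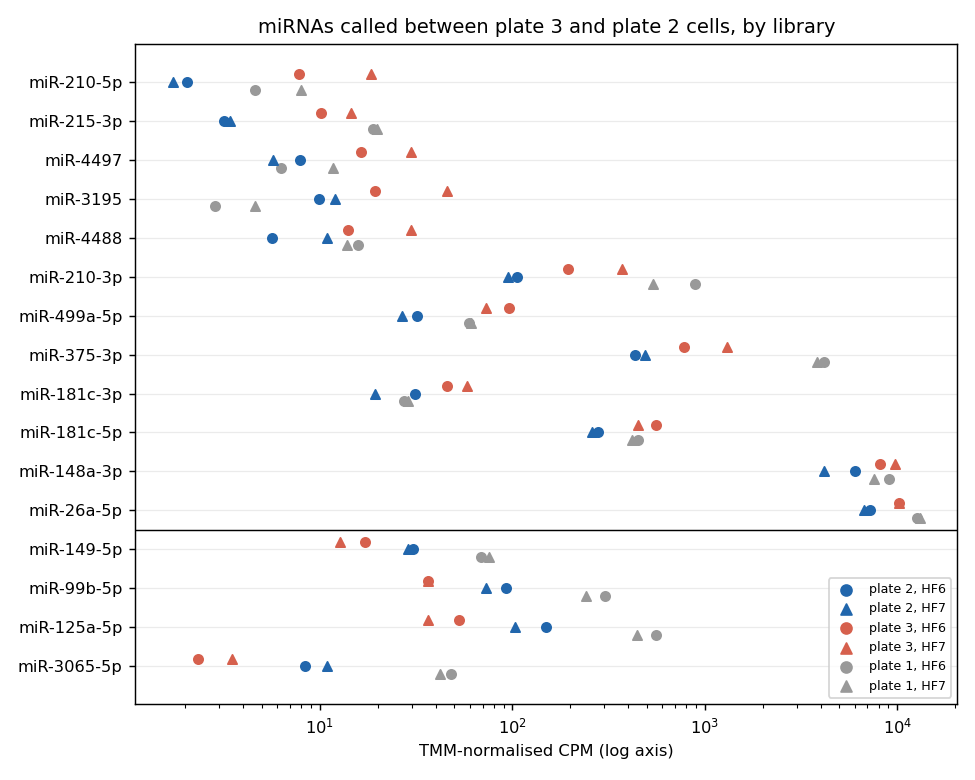
Each row is 1 of the 16 called miRNAs, and the points give TMM-normalised CPM (log axis) in each plate 2 (blue), plate 3 (red) and plate 1 (grey) library, with circles for HF6 and triangles for HF7. The 12 miRNAs above the line were higher in plate 3, the 4 below it were lower, and for these 4 the plate 1 libraries lie to the right of all others.

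**Figure D2:**
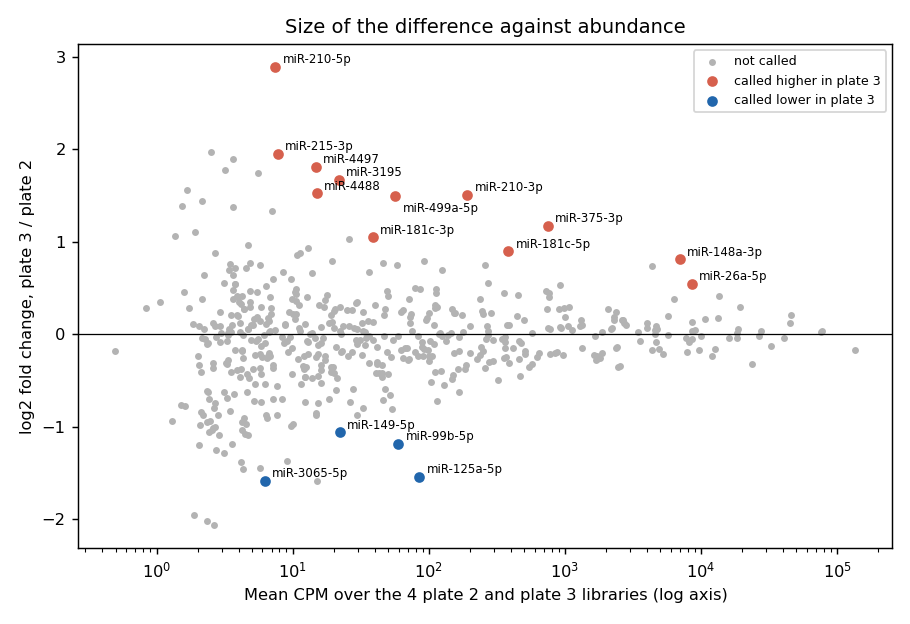
The log2 fold change of plate 3 over plate 2 is plotted against the mean CPM of the 4 libraries (log axis) for the 534 miRNAs tested, with the called ones in colour. The called miRNAs range from miR-210-5p, with the highest fold at a low level, to miR-26a-5p, whose log2 fold of 0.55 is the smallest called.

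Both arms of the miR-210 hairpin were higher in plate 3. miR-210 is the classical miRNA induced by hypoxia-inducible factors, and its mature arm lies at chr11:568112-568133 on the minus strand, in an intron of the lincRNA MIR210HG (GRCh38). miR-210-3p stood at 105.8 and 94.8 CPM in plate 2 (HF6, HF7) and at 193.4 and 372.3 CPM in plate 3. The plate 3 libraries thus lay above both plate 2 libraries, with HF7 the higher, and the plate 1 libraries were higher again at 888.3 and 537.5 CPM. The log2 fold of plate 3 over plate 2 was 1.51 ± 0.29 (standard error of the fit; adjusted p = 0.00737). The other arm, miR-210-5p, had 9 and 6 counts in plate 2 and 10 and 74 counts in plate 3, or 2.03 and 1.71 CPM against 7.77 and 18.4 CPM. Its log2 fold was 2.89 ± 0.51 (adjusted p = 0.00509), and its plate 1 levels of 4.58 and 7.97 CPM did not exceed those of plate 3 HF7. Without plate 3 HF7 the log2 folds were 0.91 for miR-210-3p (adjusted p = 0.112) and 1.98 for miR-210-5p (adjusted p = 0.321). Leaving out plate 2 HF6 or plate 2 HF7 also ended these calls, with adjusted p of 0.156 and 0.225 for miR-210-3p and 0.154 and 0.114 for miR-210-5p.

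The hypoxia-linked list holds 9 of the miRNAs that have been tied to low oxygen in the literature, and all 9 were tested. It is not a full set and, like the other lists, was chosen with earlier results of these data known. The miR-23, miR-27 and miR-24 clusters form a separate list, with 0 of 11 tested members called. Of these, 4 were called higher (miR-210-3p, miR-210-5p, miR-26a-5p and miR-181c-5p) and 0 lower, beside 2.25% called higher among all miRNAs tested. The median log2 fold of the list was 0.39, against -0.03 over all 534 miRNAs. Libraries did not overlap, with plate 3 above, for 7 of the 9, beside 18.2% of all miRNAs. The 5 members that did not pass were miR-26b-5p at 0.39 ± 0.15, miR-181a-5p at 0.24 ± 0.17, miR-107 at 0.09 ± 0.17, miR-181b-5p at 0.07 ± 0.18 and miR-103a-3p at -0.04 ± 0.14. miR-210-3p and miR-210-5p, both called, are arms of the same hairpin and come from the same locus. miR-181a-5p, miR-181b-5p and miR-181c-5p share a seed, as do miR-26a-5p and miR-26b-5p. The members are thus not separate items of evidence.

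Among abundant miRNAs, miR-375-3p, miR-148a-3p and miR-26a-5p were higher in plate 3. miR-375-3p is known from endocrine cells, including those of the gut, and lies at chr2:219001648-219001669 on the minus strand, outside any other annotated gene. It stood at 432.6 and 490.3 CPM in plate 2 and at 776.0 and 1299 CPM in plate 3. The groups did not overlap, and plate 1, at 4149 and 3815 CPM, lay above both. The log2 fold was 1.17 ± 0.21 (adjusted p = 0.00566), and it ranged from 0.71 without plate 3 HF7 (adjusted p = 0.112) to 1.47 without plate 3 HF6 (adjusted p = 0.000142). Without plate 2 HF6 or plate 2 HF7 it was not called (adjusted p = 0.156 and 0.110).

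miR-148a-3p, which is known to target the DNA methyltransferase message DNMT1, lies at chr7:25949922-25949943 on the minus strand, also without a host gene. Its level was 6004 and 4141 CPM in plate 2 and 8105 and 9724 CPM in plate 3, with plate 1 at 9014 and 7619 CPM. Plate 3 was thus above plate 2 without overlap, and overlapped plate 1. Plate 3 exceeded plate 2 by a log2 fold of 0.81 ± 0.18 (adjusted p = 0.0154), and 0.55 without plate 2 HF7 (adjusted p = 0.330). The call was also lost without plate 2 HF6 (adjusted p = 0.0838) and without plate 3 HF7 (adjusted p = 0.126). The opposite arm of the hairpin, miR-148a-5p, did not pass the test at -0.11 ± 0.22, with 123.4 and 102.5 CPM in plate 2 and 98.7 and 110.1 CPM in plate 3. Nor did miR-148b-3p, which has the same seed and comes from an intron of COPZ1, at 0.03 ± 0.18 (95% interval from -0.34 to 0.40).

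miR-26a-5p, described as a regulator of EZH2 and of cell growth, is encoded at 2 loci, in introns of the phosphatase genes CTDSPL on chromosome 3 and CTDSP2 on chromosome 12, and the mature letters of both copies are the same. It stood at 7235 and 6755 CPM in plate 2 and at 10208 and 10222 CPM in plate 3. The plate 3 libraries agreed closely with each other, while plate 1 reached 12683 and 13149 CPM. This is a log2 fold of 0.55 ± 0.14 (adjusted p = 0.0351). Leaving out any 1 of the 4 libraries ended the call (adjusted p from 0.112 to 0.330). miR-26b-5p, which shares the seed and lies in an intron of CTDSP1, stood at 5354 and 5642 CPM in plate 2 and 6899 and 7484 CPM in plate 3. Its difference of 0.39 ± 0.15 did not pass (adjusted p = 0.204). Of the 5 tested members of the miR-26 family 1 was called higher, beside 2.25% of all miRNAs, and 0 lower, and 4 had a log2 fold above 0, with a median of 0.40. The exception was the minor arm miR-26a-1-3p at -0.90 ± 0.46.

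miR-499a-5p and miR-215-3p were less abundant and also higher in plate 3. miR-499a-5p lies at chr20:34990408-34990428 on the plus strand, in an intron of MYH7B, a myosin heavy chain gene, and is known from heart and slow muscle. It stood at 31.98 and 26.8 CPM in plate 2 and at 95.5 and 73.1 CPM in plate 3, with plate 1 between them at 59.5 and 60.8 CPM. The log2 fold was 1.49 ± 0.24, with the lowest adjusted p of the 16 (0.00409), and it ranged from 1.28 to 1.66 when each library was left out in turn. It was not called without plate 2 HF6 or plate 2 HF7 (adjusted p = 0.0838 and 0.0992). Other muscle markers were scarce: miR-133b had 0 counts in all 4 libraries and miR-206 had at most 1. miR-133a-3p had 2 and 4 counts in plate 2 and 4 and 8 in plate 3 and did not pass (1.56 ± 0.80, adjusted p = 0.409). miR-1-3p, the main muscle miRNA, stood at 6.31 and 7.14 CPM in plate 2 and 9.32 and 11.4 CPM in plate 3 and did not pass the test (0.67 ± 0.36). The summed level of the 3 tested muscle markers was 38.7 and 35.1 CPM in plate 2 and 108.0 and 86.5 CPM in plate 3, most of it miR-499a-5p itself. Of the 3 tested markers 1 was called, and all 3 had plate 3 above plate 2 without overlap, beside 18.2% of all miRNAs, with a median log2 fold of 1.49. The part of muscle markers in the result was not tested.

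miR-215-3p is the minor arm of the hairpin of miR-215-5p, a p53-responsive miRNA of gut epithelium encoded opposite an intron of IARS2 on chromosome 1, and was named after its values were seen. It had 14 and 12 counts in plate 2 and 13 and 58 in plate 3, or 3.15 and 3.43 CPM against 10.1 and 14.4 CPM. In the fit it was higher by 1.96 ± 0.38 (adjusted p = 0.00803), and it was not called without plate 2 HF6, plate 2 HF7 or plate 3 HF7 (adjusted p from 0.114 to 0.227). The major arm, miR-215-5p, stood at 624.2 and 677.3 CPM in plate 2 and 772.1 and 998.6 CPM in plate 3. It did not pass at 0.45 ± 0.19 (adjusted p = 0.291). miR-194-5p, with a location 329 bases from the minor arm, stood at 0.03 ± 0.11. The host gene of miR-192-5p on chromosome 11 is MIR194-2HG, so the level of miR-194-5p need not come from chromosome 1. Of the 6 arms of miR-192, miR-194 and miR-215, 1 was called higher, beside 2.25% of all miRNAs, and 0 lower, and the median log2 fold was 0.20. miR-192-5p stood at 43232 and 42111 CPM in plate 2 and 47412 and 51452 CPM in plate 3, a difference of 0.21 ± 0.11 that did not pass.

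The hairpins of miR-181c and miR-181d lie next to each other on the plus strand of chromosome 19, in an intron of NANOS3, with miR-181c-5p at chr19:13874725-13874746 and miR-181d-5p at chr19:13874910-13874932. Members of the miR-181 family are known from lymphocyte development and from regulators of mitochondrial genes. miR-181c-5p was higher in plate 3, at 554.6 and 447.1 CPM against 278.8 and 258.1 CPM in plate 2. The groups did not overlap, and plate 1, at 449.7 and 418.8 CPM, was close to plate 3 HF7. The log2 fold was 0.90 ± 0.20 (adjusted p = 0.0175). Leaving out either plate 2 library or plate 3 HF6 ended this call (adjusted p from 0.133 to 0.290), while without plate 3 HF7 it held (adjusted p = 0.0244). The other arm, miR-181c-3p, was higher by 1.05 ± 0.26 (adjusted p = 0.0351), at 45.8 and 58.2 CPM against 31.3 and 19.4 CPM. It was not called without plate 2 HF6, plate 2 HF7 or plate 3 HF7 (adjusted p from 0.142 to 0.416).

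miR-181d-5p stood at 211.0 and 175.9 CPM in plate 2 and 306.1 and 344.0 CPM in plate 3. Its groups did not overlap and its log2 fold was 0.75 ± 0.20, but edgeR did not call it in the full fit (adjusted p = 0.0604). DESeq2 and limma-voom did call it, as did edgeR under some other settings. miR-181a-5p and miR-181b-5p, which carry the same seed and come from clusters on chromosomes 1 and 9, stood at 0.24 ± 0.17 (95% interval from -0.12 to 0.59) and 0.07 ± 0.18 (from -0.31 to 0.45). In CPM, miR-181a-5p was 2226 and 2118 in plate 2 against 2885 and 2240 in plate 3, so it was the most abundant member in every library. miR-181b-5p differs from miR-181d-5p by 1 mismatch, and the counting rule for reads that fit both is not given in the sources used here. Whether the members of the chromosome 19 pair differ from those of the other clusters was not tested. Of the 8 tested members of the family 2 were called higher, beside 2.25% of all miRNAs, and 0 lower, with a median log2 fold of 0.15.

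In the other direction, the miR-99b, let-7e and miR-125a cluster was at lower levels in plate 3 in all 4 members tested. The hairpins lie close together on the plus strand of chromosome 19, with miR-99b-5p at chr19:51692618-51692639, let-7e-5p at chr19:51692793-51692814 and miR-125a-5p at chr19:51693268-51693291. They sit in an intron of SPACA6 and overlap exons of SPACA6P-AS on the other strand. miR-125a is known to target ERBB2 and ERBB3, miR-99b belongs to the miR-99 and miR-100 family that targets MTOR, and let-7e belongs to the let-7 family, which restrains RAS genes and LIN28.

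miR-125a-5p was lower in plate 3, at 52.8 and 36.5 CPM against 149.1 and 103.1 CPM in plate 2. The groups did not overlap, and plate 1 was far above both at 556.2 and 442.3 CPM. The log2 fold was -1.54 ± 0.26 (adjusted p = 0.00456), a level 2.91-fold lower. This call was lost without plate 2 HF6 (-1.27, adjusted p = 0.149) and kept when each of the other 3 libraries was left out. miR-99b-5p was lower too, at 36.5 CPM in each plate 3 library against 93.0 and 72.8 CPM in plate 2, with plate 1 at 302.7 and 242.3 CPM. Its log2 fold was -1.18 ± 0.24 (adjusted p = 0.00874), with adjusted p = 0.154, 0.0578 and 0.0551 without plate 2 HF6, plate 2 HF7 and plate 3 HF7. let-7e-5p stood at 41.0 and 41.7 CPM in plate 2 and 24.9 and 23.1 CPM in plate 3, a difference of -0.80 ± 0.24 that did not pass (adjusted p = 0.0873). It lies 1 mismatch from let-7a-5p, which stood at 16514 and 15836 CPM in plate 2. The minor arm miR-99b-3p had low counts and stood at -1.02 ± 0.61. The cluster thus had 0 members called higher and 2 of 4 called lower, beside 0.749% called lower among all miRNAs. Its median log2 fold was -1.10, and all 4 members had plate 3 below plate 2 without overlap, beside 24.9% of all miRNAs.

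The abundant relatives with the same seeds differed less. miR-125b-5p stood at 819.9 and 993.4 CPM in plate 2 and 789.2 and 793.1 CPM in plate 3, a log2 fold of -0.20 ± 0.19 (95% interval from -0.59 to 0.20). miR-99a-5p stood at 2371 and 2610 CPM against 2351 and 2152 CPM, a log2 fold of -0.15 ± 0.17 (from -0.49 to 0.20). These intervals do not reach the values of miR-125a-5p and miR-99b-5p, but the difference between relatives was not tested. miR-100-5p, which shares the seed of miR-99b-5p, had few reads, at 2.25 and 3.43 CPM in plate 2 and 1.55 and 1.49 CPM in plate 3. Its log2 fold of -0.87 ± 0.68 did not pass (adjusted p = 0.673) and lies in the range of the cluster. let-7a-5p stood at -0.04 ± 0.13. The miR-100, miR-125b and miR-99a group had 0 of 5 members called in either direction, with a median of -0.15, and the let-7 family 0 of 9, with a median of -0.04.

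**Figure D3:**
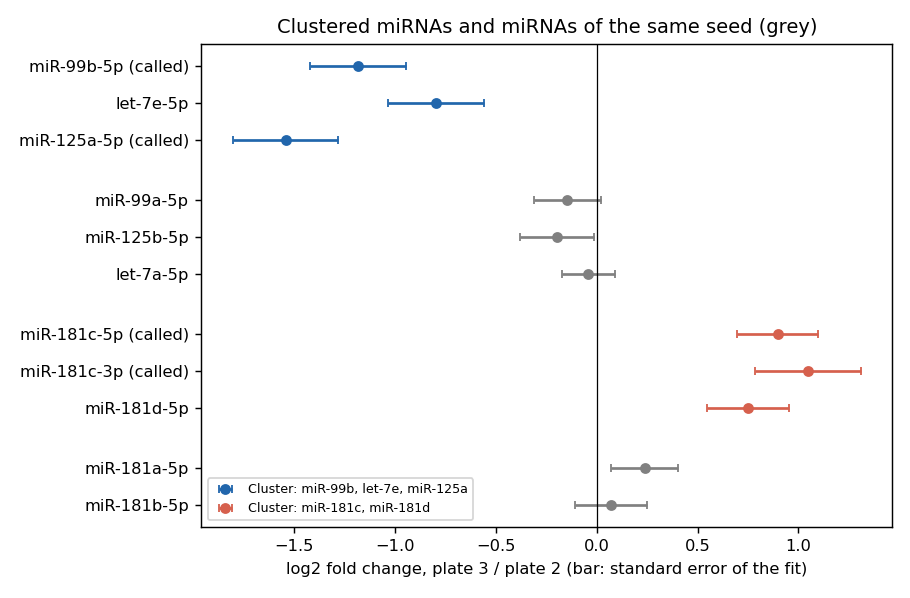
Points give the log2 fold change of plate 3 over plate 2 and bars the standard error of the fit, for the chromosome 19 cluster of miR-99b, let-7e and miR-125a (blue), for miR-181c and miR-181d (red) and for abundant relatives with the same seed from other loci (grey). The blue points lie between -1.54 and -0.80 and the red points between 0.75 and 1.05, while the grey points lie between -0.20 and 0.24; the scarce relative miR-100-5p, at -0.87, is not drawn.

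miR-149-5p and miR-3065-5p were the other miRNAs called lower in plate 3, both named after their values were seen. miR-149-5p, from an intron of the glypican gene GPC1 on chromosome 2, stood at 30.4 and 28.8 CPM in plate 2 and at 17.1 and 12.7 CPM in plate 3, a log2 fold of -1.06 ± 0.27 (adjusted p = 0.0351). miR-3065-5p had 37 and 38 counts in plate 2 and 3 and 14 in plate 3, or 8.33 and 10.9 CPM against 2.33 and 3.48 CPM. Its log2 fold was -1.58 ± 0.40 (adjusted p = 0.0351), with the HF6 plate 3 library at the floor of 3 counts. For both, plate 1 lay above plate 2, at 69.0 and 75.9 CPM for miR-149-5p and at 47.8 and 41.9 CPM for miR-3065-5p. DESeq2 and limma-voom called neither. In edgeR miR-149-5p was not called without plate 2 HF6, plate 2 HF7 or plate 3 HF7 (adjusted p from 0.185 to 0.426), and miR-3065-5p not without any 1 of the 4 libraries (adjusted p from 0.0996 to 0.308).

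miR-3065-5p is encoded on chromosome 17 at bases 81125886 to 81125908 of the plus strand, and miR-338-3p, a neural miRNA from an intron of AATK, at bases 81125887 to 81125908 of the minus strand. The sequences are therefore antisense to each other over the length of miR-338-3p.
miR-3065-5p: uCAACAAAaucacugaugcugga
miR-338-3p: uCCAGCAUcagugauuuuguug
miR-338-3p stood at 34.7 and 32.6 CPM in plate 2 and 64.5 and 52.2 CPM in plate 3. It lay on the other side of 0 from its antisense partner, at 0.77 ± 0.23, and did not pass (adjusted p = 0.0873). Whether the counting used the strand is not given in the sources used here.

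The remaining 3 called miRNAs were short GC-rich entries of 17 or 18 bases, named after their values were seen. miR-4497, which overlaps a TRPV4 exon on the other strand, stood at 7.88 and 5.71 CPM in plate 2 and 16.3 and 29.6 CPM in plate 3 (log2 fold 1.81 ± 0.38, adjusted p = 0.0109). miR-3195, opposite an exon of TAF4, stood at 9.91 and 11.99 CPM in plate 2 and 19.4 and 46.0 CPM in plate 3 (log2 fold 1.67 ± 0.36, adjusted p = 0.0119). miR-4488, on chromosome 11 without a host gene, stood at 5.63 and 10.9 CPM in plate 2 and 14.0 and 29.6 CPM in plate 3 (log2 fold 1.53 ± 0.38, adjusted p = 0.0351). In all 3 the HF7 plate 3 library was the highest, and without it the log2 folds were 1.21, 0.79 and 0.75 and the adjusted p 0.380, 0.628 and 0.643. Nor were they called without plate 2 HF6 or plate 2 HF7, with adjusted p from 0.114 to 0.425. The sequences of miR-4497 and miR-4488 show how few letters other than g and c they hold.
miR-4497: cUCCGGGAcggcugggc
miR-4488: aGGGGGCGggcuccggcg
Of the 37 tested entries with at least 70% G and C, 4 were called higher (these 3 and miR-210-5p) and 0 lower, beside 2.25% and 0.749% of all miRNAs. In the set 18 log2 folds were above 0 and 19 below. The median difference of plate 3 from plate 2 was -0.46 in the HF6 libraries and 0.07 in the HF7 libraries (log2). The lowest were miR-1180-5p at -1.95 ± 0.81 and miR-4492 at -1.58 ± 0.48, neither called. The log2 fold had a Pearson correlation of -0.04 and a Spearman correlation of -0.08 with GC content, given as a description. This covers the 279 miRNAs that averaged 20 CPM or more over the 4 libraries, which leaves out miR-4497, miR-4488 and miR-210-5p. Among 20 tested entries that overlap other RNA classes, miR-4497 alone was called (higher, beside 2.25% of all miRNAs), and the median was 0.04.

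By the naming rule, the largest further differences at 100 CPM or more with no overlap between groups were values that did not pass the test. On the higher side this was miR-34a-5p, a direct p53 target, at 63.1 and 72.8 CPM in plate 2 and 98.7 and 134.0 CPM in plate 3 (0.79 ± 0.23, adjusted p = 0.0718). On the lower side these were miR-29b-1-5p at -0.72 ± 0.22, miR-18a-3p at -0.63 ± 0.23, miR-32-3p at -0.55 ± 0.21, miR-7974 at -0.52 ± 0.21 and let-7a-3p at -0.49 ± 0.20. Of these 5, miR-29b-1-5p, miR-18a-3p, miR-32-3p and let-7a-3p are the less abundant arms of their hairpins. miR-32-5p, the other arm of miR-32-3p, lay on the other side of 0 at 0.55 ± 0.26.

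The most abundant miRNAs stayed close to each other in plates 2 and 3. miR-21-5p, an oncogenic miRNA that targets PDCD4, stood at 148826 and 139665 CPM in plate 2 and at 134624 and 122144 CPM in plate 3 (-0.17 ± 0.11, adjusted p = 0.560). miR-200b-3p stood at 0.04 ± 0.11 (95% interval from -0.19 to 0.26), miR-194-5p at 0.03 ± 0.11 and miR-192-5p at 0.21 ± 0.11. In the miR-200 family, miR-141-3p had the largest difference at 0.74 ± 0.21 (adjusted p = 0.0718), from 4030 and 2513 CPM in plate 2 to 6521 and 4447 CPM in plate 3. miR-200c-3p from the same locus stood at 0.29 ± 0.13, miR-200a-3p at -0.03 and miR-429 at -0.32, and 0 of the 9 members were called. miR-146a-5p, which is induced by NF-kappa B and targets TRAF6, stood at -0.09 ± 0.19, and miR-1246, which overlaps U2 small nuclear RNA sequence, at 0.38 ± 0.29. miR-122-5p, a liver miRNA, had 0 counts in the 4 libraries.

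Most families gave 0 called members in either direction. This held for the miR-17-92 cluster and paralogs (14 tested, median log2 fold -0.09), the miR-106b, miR-93 and miR-25 cluster (6, median 0.02), the miR-183, miR-182 and miR-96 cluster (6, median -0.12) and the miR-23, miR-27 and miR-24 clusters (11, median 0.04). It also held for the miR-30 family (9, median 0.09), the miR-15 and miR-16 family (9, median -0.15), the CLCN5 intron group (13, median -0.09) and the colorectal tumour list (9, median 0.10). The miR-29 family, which targets collagen messages and DNA methyltransferases, had 0 of 7 called and a median of 0.18, with miR-29c-3p at 0.70 ± 0.20 (adjusted p = 0.0814). miR-29a-3p, 1 mismatch from it, stood at -0.12.

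Markers of other cell types were read in the same way. All 4 libraries come from the DiFi line, so the values are miRNA levels in bulk RNA and do not count cells of other types. The 4 tested stromal and endothelial markers were all below 0, with 0 called and a median of -0.72. Their summed level was 105.2 and 89.7 CPM in plate 2 and 59.8 and 61.1 CPM in plate 3. It came mostly from miR-126-3p of endothelial cells, at 58.8 and 56.3 CPM against 31.9 and 37.3 CPM, while miR-214-3p had 0 counts in all 4 libraries and miR-143-3p at most 2. The summed level of the stromal and endothelial markers thus moved in the direction of the chromosome 19 cluster, and its part in that result was not tested. The 5 tested leukocyte markers summed to 3967 and 2905 CPM in plate 2 and 4409 and 3625 CPM in plate 3. miR-142-3p held most of this at 1660 to 2532 CPM, while miR-223-3p of myeloid cells had at most 6 counts, and 0 of 5 tested members were called. Of the 5, 3 had log2 folds below 0 and 2 above. The lowest was miR-150-5p of mature lymphocytes, with 18 and 15 counts in plate 2 and 2 and 3 in plate 3. Its log2 fold of -2.06 ± 0.72 was the lowest of all 534 miRNAs and did not pass (adjusted p = 0.149). The tested erythroid markers summed to between 8.57 and 13.7 CPM, and miR-486-5p, which was not tested, had 0 counts. miR-124-3p, a neural marker that was not tested, had no more than 1 count. The 7 tested neural markers summed to 507.4 and 550.2 CPM in plate 2 and 457.5 and 480.7 CPM in plate 3, with 0 called. Most of this sum was miR-128-3p, at 395.2 and 458.9 CPM against 323.2 and 365.3 CPM. Other members went the other way, with miR-338-3p as above and miR-219a-5p at 0.97 ± 0.53, and in all 3 of the 7 had log2 folds above 0.

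**Figure D4:**
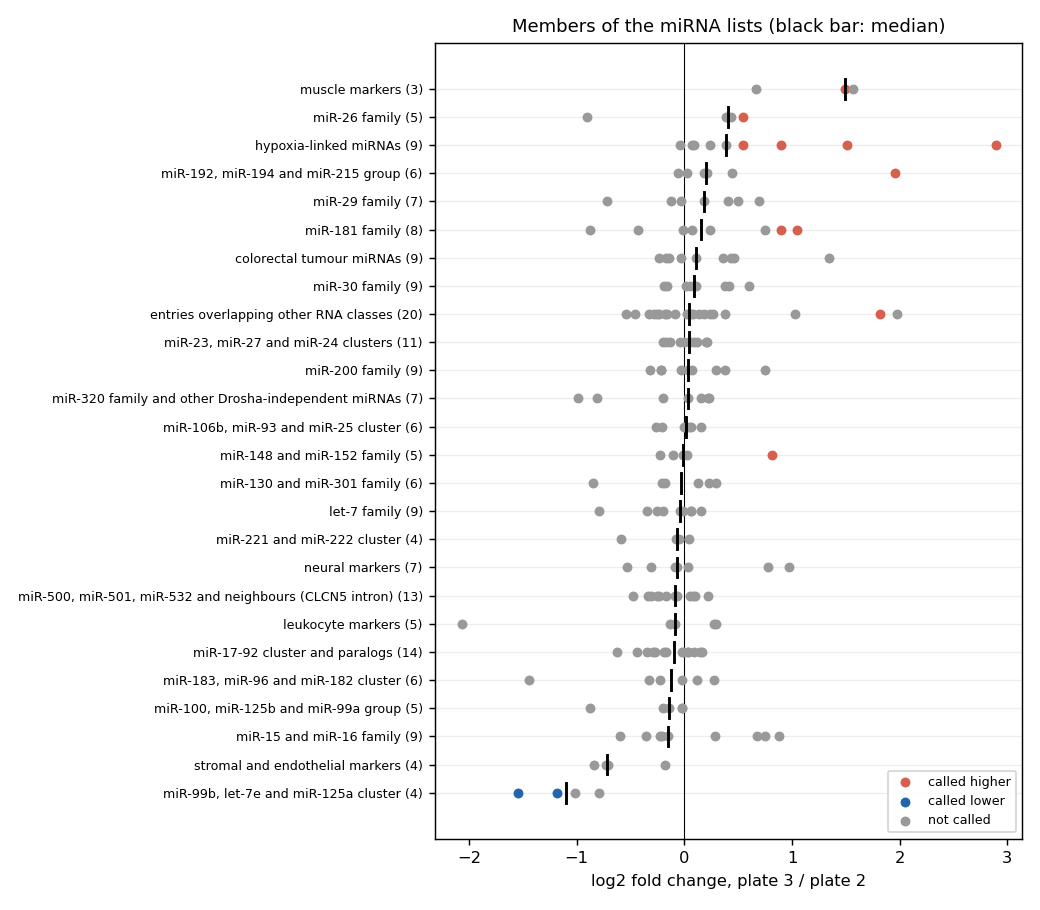
Each row is a list of miRNAs with the number tested in parentheses, each point is 1 member's log2 fold change of plate 3 over plate 2, and the black bar is the median. Medians lie near 0 for most lists, while those farthest from 0 are the muscle markers at 1.49, the miR-99b, let-7e and miR-125a cluster at -1.10, the stromal and endothelial markers at -0.72, the miR-26 family at 0.40 and the hypoxia-linked miRNAs at 0.39.

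The plate 1 levels place the 16 called miRNAs on a common scale. The mean of plate 1 lay above both other plates for 4 of the 12 miRNAs higher in plate 3 (among them miR-210-3p, miR-375-3p and miR-26a-5p), between them for 7 and below both for 1, miR-3195. For all 4 miRNAs lower in plate 3 plate 1 was the highest, so that their levels fell in the order of plate 1, plate 2 and plate 3. For miR-210-3p the log2 fold was -2.83 ± 0.30 for plate 2 over plate 1 and -1.32 ± 0.28 for plate 3 over plate 1. The values for miR-375-3p were -3.11 ± 0.23 and -1.94 ± 0.22, and those for miR-125a-5p were -1.98 ± 0.24 and -3.53 ± 0.27. The 3 differences share libraries and are not independent, so the order of the plates is a description.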

How the data were processed

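Small RNA libraries of DiFi cells were used from plate 3 (HF6, HF7), plate 2 (HF6, HF7) and plate 1 (HF6, HF7). The authors deposited expected counts of reads per mature miRNA, without normalization, in a table with 14 sample columns and 1619 entries. Of the values, 4.40% are not whole, and the rule behind the fractions, the miRNA annotation and any filters are not given in the sources used here. Cutadapt 2.10, Bowtie 1.3.1, FastQC and the build GRCh38 are named, per the submitters' processing notes. The HDM media sample without cells has no column and was not analysed here.

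Expected counts were rounded to whole numbers and the 6 plate libraries were fitted in edgeR 4.0.16 (R 4.3.3; TMM, filterByExpr, quasi-likelihood, 1 coefficient per plate number). The filter left 534 miRNAs, which hold at least 99.96% of each library's counts. Residual degrees of freedom numbered 3, and edgeR put the shared biological coefficient of variation at 0.160. A further 14.0 prior degrees of freedom were borrowed across miRNAs. The p-values and 95% intervals thus rest on 17.0 degrees of freedom, mostly from spread shared across miRNAs. Calls needed an adjusted p (Benjamini-Hochberg, all 534 miRNAs) under 0.05. Level is TMM-normalised CPM. Fold changes are relative to the other miRNAs of a library, since no spiked-in RNA was used here. The scripts were tested on simulated data.

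The miRNAs named were drawn from several sets, and some members of the sets are not given here. The first set is the largest called changes with at least 100 CPM in a group and no overlap. It was filled to 6 per direction with the largest not called. The other sets are the 10 most abundant, a fixed set, the 4 most abundant of each list and the other arms of these. Others are said to be named after their values were seen, or are all called miRNAs. The members and lists were chosen with earlier results of these data known. Alternatives used DESeq2 1.42.0, limma 3.58.1 (voom), other scalings, filters and sets of libraries. With 1 library of a plate left out, the lone library was assumed to vary like the others. Mature sequences came from RefSeq (GRCh38.p14), matched by name for 473 of the 534 miRNAs. All 1438 matched entries of the table had the same letters. Host genes came from GENCODE release 29.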

Additional observations from a re-analysis of the deposited data

How the results depend on the processing

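The full fit called 16 miRNAs (12 higher, 4 lower). RLE size factors and total counts gave the same 16 miRNAs. Leaving out the entries that overlap other RNA classes gave the same numbers but only 15 of the same miRNAs. miR-4497 was among those left out, and miR-181d-5p was called. DESeq2 called 16, with 14 higher and 2 lower, and limma-voom 15, with 13 higher and 2 lower. With no low-count filter 20 were called, and 14 with at least 50 counts in 2 libraries. The 12 replicated libraries together gave 1 (1 higher, 0 lower), miR-210-5p, and thinning to the shallowest library gave 9 (7 higher, 2 lower). Only the 4 plate 2 and plate 3 libraries gave 0 in edgeR and 0 in limma-voom (0 higher, 0 lower in each) and 11 in DESeq2 (9 higher, 2 lower). The DESeq2 and limma-voom fits of 4 libraries were chosen after seeing the data. Leaving out each library in turn gave from 0 to 16 calls, with 0 to 12 higher and 0 to 4 lower. HF number as a replicate block raised the calls to 29 (21 higher, 8 lower), with all 16 among them. In that fit, and without a low-count filter, the prior degrees of freedom were infinite, so the spread was fully shared across miRNAs. They were 14.0 in the full fit, and the part of this in the number of calls was not tested. The labels do not say that an HF number marks a shared batch. Deviations of same-numbered libraries from their group means correlated at 0.246 between plates 2 and 3, and at 0.0403 and 0.0394 with plate 1 (279 miRNAs). Plate 2 against plate 1 gave 127 calls in the 12 libraries, 130 when thinned and from 109 (without plate 2 HF7) to 215 with single libraries left out, against 199. Plate 3 against plate 1 gave 93 in the 12 libraries, against 170. The 16 called miRNAs kept their direction wherever tested.

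The log2 folds that changed sign all belong to miRNAs that were not called, near 0 except for miR-1246 (0.38 in the full fit). let-7f-5p (-0.01 in the full fit) stood at 0.0280 with DESeq2 and RLE factors, 0.00222 with limma-voom, 0.00971 with 12 libraries, 0.0127 when thinned, and 0.0290, 0.0299 and 0.0472 with the 4 libraries in edgeR, DESeq2 and limma-voom. miR-200a-3p stood at 0.00730 with DESeq2 and RLE factors, and at 0.00842, 0.00780 and 0.0200 with the 4 libraries in edgeR, DESeq2 and limma-voom. let-7a-5p stood at 0.000813, 0.000992 and 0.0109 in those 3 fits. At the 50-count minimum miR-148b-3p and miR-194-5p stood at -0.00339 and -0.00305. Over the libraries left out in turn, the log2 folds ran from -0.23 to 0.12 for let-7f-5p, -0.24 to 0.15 for miR-200a-3p, -0.188 to 0.0334 for let-7a-5p, -0.20 to 0.24 for miR-148b-3p, -0.0725 to 0.0610 for miR-194-5p and -0.0430 to 0.0758 for miR-200b-3p. They ran from -0.318 to 0.0534 for miR-29a-3p, -0.0926 to 0.133 for miR-92a-3p, -0.236 to 0.0239 for miR-146a-5p, -0.15 to 0.70 for miR-1246, -0.000594 to 0.0986 for miR-181b-5p and -0.256 to 0.00853 for miR-148a-5p. The cause of these changes was not tested. Depth limits entries of a few counts most, and plate 3 HF6 has the highest floor, 2.41 CPM.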

Other observations

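Less abundant arms of hairpins were read against their partners. Of 102 hairpins with a major arm of at least 20 CPM and a minor arm of at least 5 CPM, 58 had both arms on the same side of 0 between plate 3 and plate 2. The median log2 fold was 0.03 for major arms and -0.03 for minor arms. The median log2 ratio of minor over major arm was -4.97 and -4.99 in plate 2 and -4.85 and -4.97 in plate 3 (HF6, HF7). Taken hairpin by hairpin, the median change of this ratio from plate 2 to plate 3 was -0.11 in HF6 and -0.03 in HF7. The ratio was lower in plate 3 for 63 of the 102 hairpins in HF6 and for 54 in HF7. Among the called hairpins, miR-210 and miR-181c had both arms called higher in plate 3, while miR-148a and miR-215 had 1 arm called. The arm not called had a log2 fold of -0.11 for miR-148a and 0.45 for miR-215.

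Some miRNAs that edgeR did not call in the full fit passed under other settings. DESeq2 called miR-181d-5p, miR-29c-3p and miR-34a-5p higher. Without a low-count filter, miR-141-3p, miR-181d-5p and miR-7704 were called higher and miR-4492 lower, the last at 24.8 and 22.3 CPM in plate 2 and 3.11 and 10.2 CPM in plate 3. Each of these was also called with HF number as a replicate block, and miR-141-3p also with the libraries thinned. With at least 50 counts in 2 libraries miR-877-5p, from a mirtron of ABCF1, was called lower, at 64.6 and 73.1 CPM in plate 2 and 32.6 and 44.0 CPM in plate 3. miR-7704, miR-4492 and miR-877-5p were named after their values were seen.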
